A study of Mus musculus with 6 samples.

Results

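Gzmc-negative NK cells were picked out of a droplet single-cell RNA data set of 2 libraries, Empty vector and Bmal1 WT, and were chosen by the UMIs (unique molecular identifiers, which count captured transcripts) that each cell held for a few genes. A cell entered the class with at least 2 UMIs summed over Ncr1, Klrb1c and Eomes, 0 over Cd3e and Cd3d, 0 of Csf1r, fewer than 2 over Mki67 and Top2a and 0 of Gzmc. Of 6932 barcodes, 6364 were kept with at least 200 genes and at most 20% mitochondrial UMIs, and 1182 of these met the rule, 896 of Empty vector and 286 of Bmal1 WT. The other 5182 kept cells held 103 NK cells that met every criterion but carried Gzmc, and 514 CD8 T cells.

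Both groups were labelled as the YUMM2.1 cell line, a mouse melanoma line, and they differed in the vector. Arntl encodes Bmal1, which drives transcription in the circadian clock. Whether the cells were grown in culture or taken from tissue, and at what time, is not in the labels. They gave 3 hashtags per group, h1, h7 and h8 for Empty vector and h3, h5 and h9 for Bmal1 WT, without saying whether a hashtag was an animal, so that p-values measure only the spread between these samples, which may be technical. The 3 hashtags of a group shared 1 droplet channel, so group and channel cannot be told apart.

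NK cells are lymphocytes that kill without a rearranged antigen receptor. They release perforin and granzymes, serine proteases stored in granules, onto a target, and they read the target through receptors that activate or inhibit them. In the mouse the Ly49 receptors, encoded by the Klra genes, bind MHC class I or related molecules, and each NK cell switches on only some of them. Gzma and Gzmb are the best known granzymes of NK cells. Gzmc is a granzyme that resting NK cells mostly lack. On GRCm38 Gzma lies at chr13:113093825-113100981, and Gzmb (chr14:56258838-56262260) and Gzmc (chr14:56231441-56234656) lie near each other, all on the minus strand.

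The hashtags define every replicate below, and each is an antibody carrying 1 designed oligonucleotide whose 15 bases were counted beside the transcripts. Their barcodes are given as the labels list them, since the replicates of a library can be told apart by nothing else.
Empty vector h1: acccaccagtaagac
Empty vector h7: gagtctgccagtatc
Empty vector h8: tatagaacgccaggc
Bmal1 WT h3: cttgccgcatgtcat
Bmal1 WT h5: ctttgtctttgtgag
Bmal1 WT h9: tgcctatgaaacaag
Class cells with exactly 1 hashtag numbered 276, 184 and 296 for h1, h7 and h8 and 137, 76 and 48 for h3, h5 and h9. No hashtag was called on 87 Empty vector and 15 Bmal1 WT class cells and several on 53 and 10, and these cells entered no replicate.

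The median class cell held 4470 UMIs (4056 in Empty vector, 5568.5 in Bmal1 WT) and 1884 genes, and the class summed to 6394206 UMIs. Gzmc-positive NK cells were deeper, with medians of 7299.5 and 9362 UMIs, and a cell with fewer UMIs has less chance of showing a Gzmc UMI. The 2 libraries shared 5 barcodes, and 0 of them fell in the class.

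Of the genes in the rule, Klrb1c (the NK1.1 antigen) gave a UMI in 94.2% of class cells, Eomes, a T-box factor of NK cells, in 79.8%, and Ncr1, the activating receptor NKp46, in 70.1%. These values chose the cells and are given as a description. At the edge of the rule, the 80 class cells with a marker sum of only 2 (median 2267.5 UMIs) held 5060.4 CPM (UMIs per 1000000 UMIs of the summed cells) of Gzma, 587 of Prf1 and 987 of Nkg7, a granule membrane protein. The 95 cells just outside it, with a sum of 1, held 802, 101 and 179 CPM. On the Gzmc side, 40 NK cells with 1 Gzmc UMI held 5282 CPM of Gzma, and 63 with 2 or more held 1574 CPM.

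All 6 NK markers were found in the class, with a summed level of 9586 CPM against 389 CPM in all other kept cells. The part of Ncr1, Klrb1c and Eomes in this was fixed by the rule. The genes of the labelled melanoma line were scarce, with 6 markers summing to 41.4 CPM against 533 in the other cells. Of the NK markers, Gzma, Prf1 and Klra8 were not used to choose the cells. They stood at 6365, 846 and 669 CPM against 227, 52.2 and 22.2 in the other cells. The cells were chosen for lacking Cd3e and Cd3d, and 7 of the 10 T cell markers were low as well, with Trac at 17.5, Cd3g at 5.32, Cd8a at 1.09 and Cd5 at 0 CPM. The T cell receptor constant region genes Trbc1 and Trbc2 stood at 568 and 148 CPM, in 80.3% and 30.5% of class cells, and the costimulatory receptor gene Cd28 at 122 CPM. The whole list of 10 summed to 864 CPM in the class and 725 in the other cells.

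Genes of other cell types were mostly scarce but not evenly spread. The 9 macrophage and monocyte markers summed to 22.4 CPM against 1145 in the other cells, with Adgre1 at 0 and Lyz2 at 6.72 CPM. The B cell markers Cd79a and Ms4a1 stood at 0.156 and 0 CPM, while Ighm, the immunoglobulin mu chain, reached 155 CPM and a UMI in 40.4% of class cells. In the ILC2 and ILC3 list, Gata3 stood at 117 CPM and Il23r, Il22 and Il17a at 0. In the endothelial list, Pecam1 stood at 123 and Kdr at 0 CPM. The 4 neutrophil and 5 erythroid markers each summed to 0.156 CPM, with 1 gene of each list seen.

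Dendritic cell and stromal markers came from few cells. The 10 dendritic cell genes summed to 778 CPM, from 59.5 to 790.4 over the Empty vector hashtags and from 55.1 to 1453 over the Bmal1 WT hashtags, and 10 cells held 92.9% of the 2130 UMIs of Cd74, the invariant chain. The 6 fibroblast genes summed to 9.33 to 357 CPM in Empty vector (highest in h1) and 12 to 25.0 in Bmal1 WT, and the 6 melanoma genes to 14.4 to 31.0 and 17.5 to 93.0. One cell held 447 of the 456 UMIs of the mast cell protease Mcpt1. Leaving out Ighm, 12.8% of class cells (151) held 2 or more UMIs of B cell, myeloid, melanoma, stromal, mast cell or neutrophil markers. This was 11.9% of cells with 1 hashtag and 25.4% (exact 95% interval 15.3 to 37.9, counting error only) of those with several. Over the hashtags it ran from 8.70% to 10.8% in Empty vector and from 10.5% to 20.8% in Bmal1 WT. No doublet caller was run.

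Against all other kept cells, 489 of 4209 genes (11.6%) were at least 2-fold higher in the class and 725 (17.2%) at least 2-fold lower, in summed CPM with 5 CPM added to both sides. The rule used these same cells, so the folds are a description with no test. The 20 highest were mostly genes of killing and of NK receptors. Gzma led at 27.4-fold, followed by Klra8, the activating receptor Ly49H, at 24.8-fold, Klra9 (Ly49I) at 17.0-fold and Prf1, perforin, at 14.9-fold. Gzmb came to 13.0-fold, from 1311 CPM in the class and 95.9 in the others.

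Receptors made up most of the rest. Klra4 (Ly49D, activating) was 12.6-fold, Klra7 (Ly49G, inhibitory) 10.9-fold and Klra3 (Ly49C, inhibitory) 9.43-fold higher. The NKR-P1 genes Klrb1f, Klrb1b and Klrb1a stood at 12.8-, 10.9- and 9.35-fold, and the lectin-like receptors Klri2, Klre1 and Klrc2 at 13.3-, 11.5- and 11.3-fold. Serpinb9b and Serpinb9 encode inhibitors of serine proteases, the latter of granzyme B, and stood at 13.5- and 8.47-fold. Txk, a kinase of lymphocytes, was 9.20-fold higher, Car2, a carbonic anhydrase, 9.75-fold, Khdc1a 9.92-fold and Phactr3 8.97-fold.

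The genes lowest in the class were those of myeloid, stromal and melanoma cells. Timp1, a protease inhibitor of the matrix, was 54.5-fold lower, Lyz2, lysozyme of myeloid cells, 53.8-fold and Spp1, osteopontin, 47.9-fold. Thbs1 (47.3-fold), Arg1 (43.7-fold), Il1b (37.5-fold), Col3a1 (29.5-fold), Igfbp3 (27.6-fold) and Cald1 (27.3-fold) followed. Spp1 was the most abundant of them in the class, at 106 CPM, and 56.7% of its UMIs were in 10 cells.

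By function, 10 of 15 measured granule and death ligand genes were at least 2-fold higher than in the other cells and 0 lower, with a median log2 ratio of 2.68. Nkg7 stood at 1471, Ctsw, a cathepsin of killer cells, at 414 and Fasl, the Fas ligand, at 309.8 CPM. Of the NKG2, NKR-P1 and other NK receptors 13 of 15 were higher (median 3.22), among them Klrd1 (CD94) at 873 and Klrk1 (NKG2D) at 544 CPM. Ncr1 and Klrb1c belong to this list and to its higher genes, and their place was fixed because the rule chose cells by them. Of the signalling adaptors and kinases 13 of 18 were higher (median 1.49), with Fcer1g at 1377 and Tyrobp (DAP12, the adaptor of activating Ly49 receptors) at 1026 CPM. The hypoxia and glycolysis list went the other way, with 20 of 23 genes at least 2-fold lower and a median of -1.66.

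**Figure D1:**
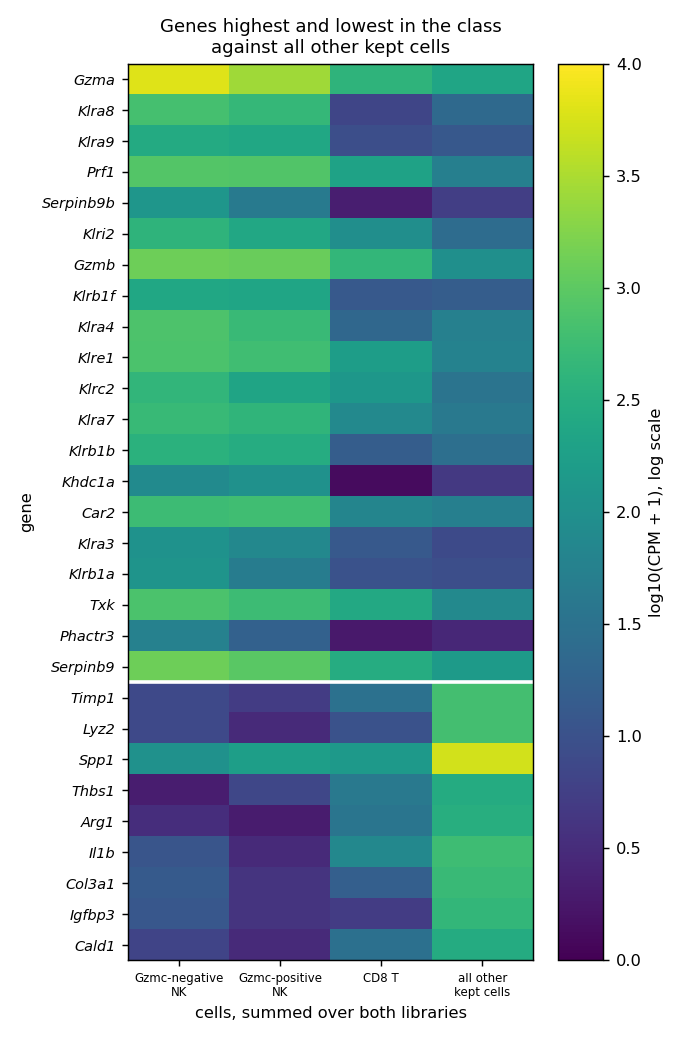
Heat map of log10(CPM + 1) for the 20 genes with the highest (above the white line) and 9 of the 10 with the lowest ratio in Gzmc-negative NK cells against all other kept cells; columns are Gzmc-negative NK cells, Gzmc-positive NK cells, CD8 T cells and all other kept cells, each summed over both libraries. Gzma, at 6365 CPM in the class, is at 397 CPM in CD8 T cells and 227 CPM in all other kept cells.

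CD8 T cells, the other killer lymphocytes of the data set, helped to place the class. They held 397 CPM of Gzma, 451 of Gzmb and 201 of Prf1, against 6365, 1311 and 846 in the class. The chemokine gene Ccl5 was of like size in both, at 4242 CPM in the class and 4836 in CD8 T cells, and so was Nkg7, at 1471 and 1329. Tyrobp divided them, at 1026 and 66.5 CPM.

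The nearest cells were the NK cells that carried Gzmc. Only 70 of 3506 genes (2%) were at least 2-fold higher in the class and 15 (0.428%) at least 2-fold lower, again as a description, since Gzmc and depth separated the cells. Gzmb and Prf1 were of like level, at 1311 and 846 CPM in the class and 1224 and 809 in the Gzmc-positive cells. Gzma was not, at 6365 against 2692 CPM, and was higher in the class in both Empty vector (6310.2 against 2698) and Bmal1 WT (6502 against 2686).

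Genes of mature NK cells set the class above the Gzmc-positive cells. In that list 7 of 11 measured genes were at least 2-fold higher and 0 lower, with a median log2 ratio of 1.13. Klf2, a factor of quiescent and circulating lymphocytes, stood at 391 against 98.2 CPM, and Itgam (CD11b), an integrin gained as NK cells mature, at 179 against 71.9. Cma1, a chymase, stood at 56.9 against 13.2, and Zeb2 and Prdm1, factors of late maturation, at 205 against 89.1 and 107 against 50.6. Tbx21 (T-bet) was nearly level, at 149 against 133 CPM.

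Of the homing receptors 3 of 11 were at least 2-fold higher and 1 lower, and of the cytokine receptors 2 of 16 higher and 0 lower. Cxcr4, a chemokine receptor of bone marrow homing, stood at 823 against 297 CPM. The IL-18 receptor genes Il18r1 and Il18rap stood at 222 against 88.1 and 278 against 104. Of the cytokine and chemokine genes 3 of 9 were higher and 0 lower, and Ccl5 was at 4242 against 1468 CPM. In each gene named here the class was higher in both libraries.

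Of the ILC1 and residency list 2 of 10 measured genes were at least 2-fold lower in the class and 1 higher, and of the checkpoint list 1 of 6 lower and 0 higher. Cxcr6, a chemokine receptor of resident lymphocytes, stood at 10.2 against 60.8 CPM (4.34-fold lower on the scale with 5 CPM added) and Inpp4b, a phosphatase, at 81.2 against 247 (2.93-fold). Ctla4, an inhibitory receptor, stood at 90.9 against 235 (2.50-fold) and Hilpda, a hypoxia-induced lipid droplet protein, at 55.2 against 151 (2.59-fold). Sema6d (5.19-fold), Cdh1 (2.91-fold), AA467197 (2.82-fold), Magohb (2.53-fold), 2010300C02Rik (2.29-fold) and Jaml (2.27-fold) completed the 10 lowest. Itga1, the CD49a integrin of resident cells, was at 136 against 243 CPM and Itga2, the CD49b integrin of conventional NK cells, at 221 against 92.1.

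Of the 10 genes highest against the Gzmc-positive cells, 9 were carried by few cells. For Mcpt1, Mcpt2, Cd74, H2-Ab1, H2-Eb1, H2-Aa, Sparc, Ccnd1 and Cst3, 10 cells held between 82.2% (Ccnd1) and 100% (Mcpt1, Mcpt2) of the class's UMIs. Klf2, of rank 10, was found in 657 cells, and 10 cells held 8.36% of its UMIs.

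Inside the class Gzma was both abundant and uneven. To compare cells at 1 depth, each was thinned at random to 2000 UMIs, which left 1071 of 1182 cells (798 Empty vector, 273 Bmal1 WT). Gzma gave a UMI in 86.3% of them (exact 95% interval 84.1 to 88.3, counting error only) and in 90.4% of unthinned class cells. Free RNA can set a floor for such shares, but its level was not estimated. CD8 T cells, as killer lymphocytes, may also hold Gzma transcripts of their own. In CD8 T cells thinned alike the share was 13.0%, and in cells with 2 or more Csf1r UMIs, which are myeloid, it was 2.59%, at median depths before thinning of 5299.5 and 10381 UMIs.

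A thinned class cell held a mean of 14.9 Gzma UMIs and a median of 12, with the first decile at 0, the ninth at 34 and a maximum of 94. The variance over cells was 12.5 times the mean, a ratio of rank 6 of 3345 genes with a mean of at least 0.1. Over those genes the median ratio was 1.10 and the 95th percentile 1.70.

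Gzmb was rarer and more concentrated. It gave a UMI in 57.7% of thinned cells (54.7 to 60.7) and 70.5% of unthinned ones, against 28.6% of CD8 T cells and 1.48% of Csf1r cells. Its mean was 3.1 UMIs and its median 1, and the 10% of cells with most Gzmb held 51.3% of its UMIs, where the same share of cells for Gzma held 29.1%. Its ratio of variance to mean was 8.72, of rank 10. Across the 1071 cells Gzma and Gzmb rose together (Pearson r = 0.601 on the log of 1 plus UMIs, Spearman rho = 0.655), as a description over cells of the same libraries and depth.

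Other granule genes had lower ratios of variance to mean or were nearly absent. Prf1 gave a UMI in 65.5% of thinned cells with a ratio of 3.16, and Nkg7 in 91.9% with a ratio of 1.57. Gzmk, a granzyme of memory T cells, was seen in 2.80% of thinned class cells against 17.2% of CD8 T cells, and Gzmm in 0.747% against 2.07%, so neither rose above the level in T cells.

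Among the 15 genes with the largest ratio, Ccl5 (12.6), Ccl4 (12.1) and Ccl3 (5.38), chemokines released by activated NK cells, stood beside Gzma and Gzmb. Mcpt1 (96.4), Cd74 (18.9) and Cst3 (15.2) had the 3 largest ratios and were the genes carried by few cells. The heat shock gene Hspa1b (11.3) was found in 4.30% of thinned cells, and the linker histone gene Hist1h1c (5.83) in 12%. The rest were abundant transcripts present in nearly every cell, namely Gm42418 (14.6), Malat1 (10.0), mt-Co1 (5.44), mt-Co3 (5.04) and Actb (4.85).

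To see what else differed along the Gzma range, thinned cells with at most 6 Gzma UMIs (369) were set beside those with more than 18 (351). These limits cut a continuous range and define no cell type, with 38 cells at 6, 25 at 7, 23 at 18 and 21 at 19 UMIs. Before thinning, the low cells were the deeper, with a median of 5991 against 3978 UMIs. Of 3580 genes, 28 (0.782%) were at least 2-fold higher in the high cells and higher in 6 of 6 hashtags, and 29 (0.81%) were lower by the same rule. No test was run on this split of the same cells.

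Of the granule and death ligand list 3 of 15 measured genes met the rule and 1 was lower (Tnfsf10), with a median log2 ratio of 0.46. Gzmb stood at 3393 CPM in the high and 239.8 in the low cells, Serpinb9b at 410.3 and 14.9, Prf1 at 1746 and 355 and Ccl5 at 7748 and 1654. Of the mature NK list, 8 of 11 measured genes met the rule and 0 went lower, with a median log2 ratio of 1.43 against 0.06 over all genes. Klrg1, a receptor of terminally mature NK cells, stood at 105 against 8.13 CPM (log2 ratio 3.07), Ly6c2 at 427 against 55.6 (2.84), Itgam at 345 against 86.7 (1.93) and Klf2 at 830.5 against 252 (1.70).

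Immature NK genes went the opposite way, with 5 of 11 lower, 0 higher and a median of -1.20. Tcf7, a factor of early NK cells, stood at 22.8 CPM in the high and 247 in the low cells (-3.18), and Emb, the cell-surface glycoprotein embigin, at 165 and 1230.3 (-2.86). Ltb, lymphotoxin beta, stood at 41.3 and 289 (-2.66) and Xcl1, a chemokine that attracts dendritic cells, at 109.7 and 424 (-1.90). Of the ILC1 and residency list 4 of 10 were lower (Inpp4b, Rora, Tnfsf10 and Ahr) and 0 higher. Without the class cells that carried other lineages' markers, the counts were 8 for the mature and 6 for the immature list, with medians of 1.42 and -1.19.

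A split on Gzmb, between 453 cells with 0 UMIs and 293 with more than 3, gave 34 of 3580 genes (0.95%) higher and 23 (0.642%) lower by the same rule. Of the mature list 9 of 12 were higher and of the immature list 5 of 11 lower, with medians of 1.42 and -1.11 against 0.05 over all genes; Gzma itself is 1 of the mature genes. Here 151 cells held exactly 1 Gzmb UMI, 71 held 3 and 56 held 4. The 2 splits were made on the same cells and on genes that rose together.

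**Figure D2:**
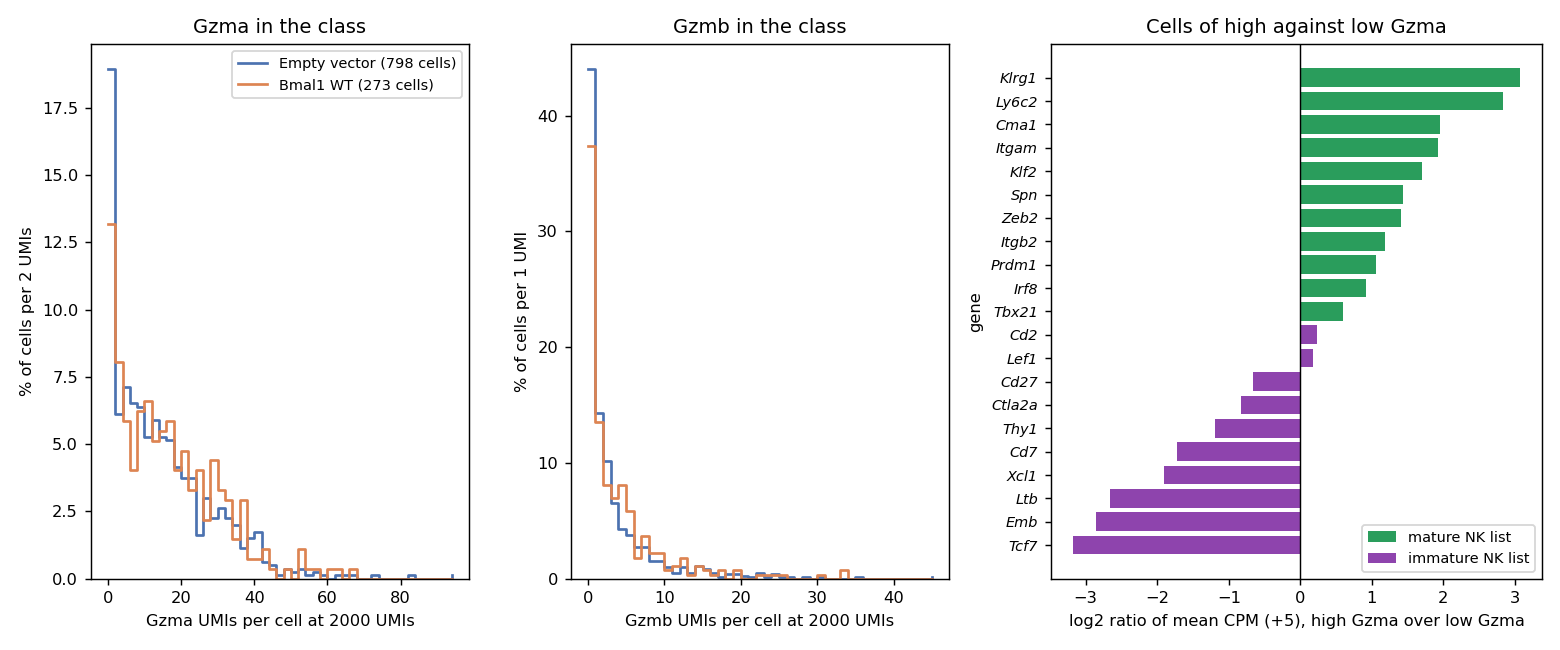
Left and middle, the percent of Gzmc-negative NK cells by Gzma or Gzmb UMIs per cell after thinning to 2000 UMIs, for Empty vector (798 cells) and Bmal1 WT (273 cells). Right, the log2 ratio of CPM (5 CPM added) in cells with over 18 against most 6 Gzma UMIs for genes of the mature (green) and immature (purple, 10 of the 11 measured) NK lists, where Klrg1 at 3.07 and Ly6c2 at 2.84 are highest and Tcf7 at -3.18 is lowest.

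The Ly49 genes lie together on chromosome 6 (GRCm38), from Klra17 at chr6:129831154-129876672 to Klra2 at chr6:131219223-131247362, all on the minus strand. Within the class they fell into common, rare and absent receptors. Klra8 (Ly49H) was found in 48.6% of thinned cells (45.5 to 51.6), Klra7 (Ly49G) in 45.7% (42.6 to 48.7), Klra4 (Ly49D) in 44.4% (41.3 to 47.4) and Klra9 (Ly49I) in 29.7% (27.0 to 32.5). The intervals of the first 3 overlap, and that of Klra9 lies below them. Unthinned, the shares were 57.1%, 58.4%, 50.3% and 41.3%, with Klra7 ahead of Klra8.

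Klra3 (Ly49C) followed at 14.0% (12 to 16.2) and Klra1 (Ly49A) at 11.9% (9.98 to 13.9), which do not differ beyond counting error. All 6 were below 5% in CD8 T cells (highest for Klra7, 4.55%) and below 1% in Csf1r cells (highest for Klra4, 0.985%). Klra6 (Ly49F) was in 3.36% of class cells, 4.76% of CD8 T cells and 0.123% of Csf1r cells. Klra5 (Ly49E) was in 1.68%, Klra10 (Ly49J) in 1 cell and Klra17 (Ly49Q) in 0 of 1071 cells, which allows up to 0.344% by the exact interval. Klra2 (Ly49B) was in 0.187% of class cells and in 28.4% of Csf1r cells, the reverse of the 6 commoner genes.

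Near-identical copies limit how well the counts separate these genes, because the chemistry reads the 3' ends. Of the 50-base windows in the last 500 bases of their GENCODE M21 transcripts, 42.4% of Klra3, 40.8% of Klra9 and 40.6% of Klra10 were also found in another Ly49 gene. For Klra8 it was 13.1% (with Klra9), for Klra1 5.76% and for Klra4 4.66% (with each other). For Klra7, Klra2, Klra5, Klra6 and Klra17 it was 0. Values of Klra3, Klra9 and Klra10 are therefore uncertain.

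A class cell showed a mean of 1.99 Ly49 genes (SD 1.24 over 1071 thinned cells). No Ly49 gene was seen in 13.6% of cells (11.6 to 15.8), 1 in 22.2%, 2 in 28.1%, 3 in 24.7%, 4 in 9.80% and 5 in 1.40%, and 6 in 1 cell. The mean was 0.149 in CD8 T cells and 0.315 in Csf1r cells. It depended on depth, at 1.50 when cells were thinned to 1000 UMIs and 2.52 without thinning, where 9.39% of cells showed none.

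Every combination of the 4 commonest receptors occurred, 16 of 16 patterns of Klra4, Klra8, Klra7 and Klra9. None of the 4 was seen in 16.1% of cells (13.9 to 18.4), Klra4 with Klra8 and Klra7 in 11.2% (9.38 to 13.2) and Klra7 alone in 9.52% (7.83 to 11.4). All 4 together were seen in 4.11% (3.00 to 5.48).

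Of the 15 pairs among 6 receptors, 13 lay between 0.89 and 1.17 times the product of their shares. The activating pair Klra4 and Klra8 was seen together in 27.7% of cells where the product of the 2 shares was 21.5%, a ratio of 1.29, which was 1.29 in Empty vector and 1.28 in Bmal1 WT. Klra7 and Klra9, both inhibitory, came together in 12% against 13.6% (0.89). Klra1 and Klra3 had the lowest ratio, 0.56, on only 10 cells with both. No test was made over cells.

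Few genes differed between cells with few and with many Ly49 genes. Between 384 cells with at most 1 and 121 with more than 3, 4 of 3575 genes (0.112%) were at least 2-fold higher with many and in 6 of 6 hashtags, and 16 (0.448%) were lower. Klrc1, the inhibitory receptor NKG2A, was found in 45.6% of the cells with few and 13.2% of those with many Ly49 genes (478 and 136 CPM). Ikzf2, the factor Helios, stood at 164 and 16.5 CPM, Emb at 978 and 351 and Klrb1b at 594 and 248. Ccl4 went the other way, at 869.8 and 2198 CPM, and Gzmb stood at 969 and 1926. Of the mature list 0 of 12 genes met the rule, with a median log2 ratio of 0.46. Of the other NK receptors 2 of 13 were lower (median 0.13) and of the granule list 1 of 16 (median 0.14). The limits cut a graded count, with 238 cells at 1, 301 at 2, 265 at 3 and 105 at 4 genes.

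**Figure D3:**
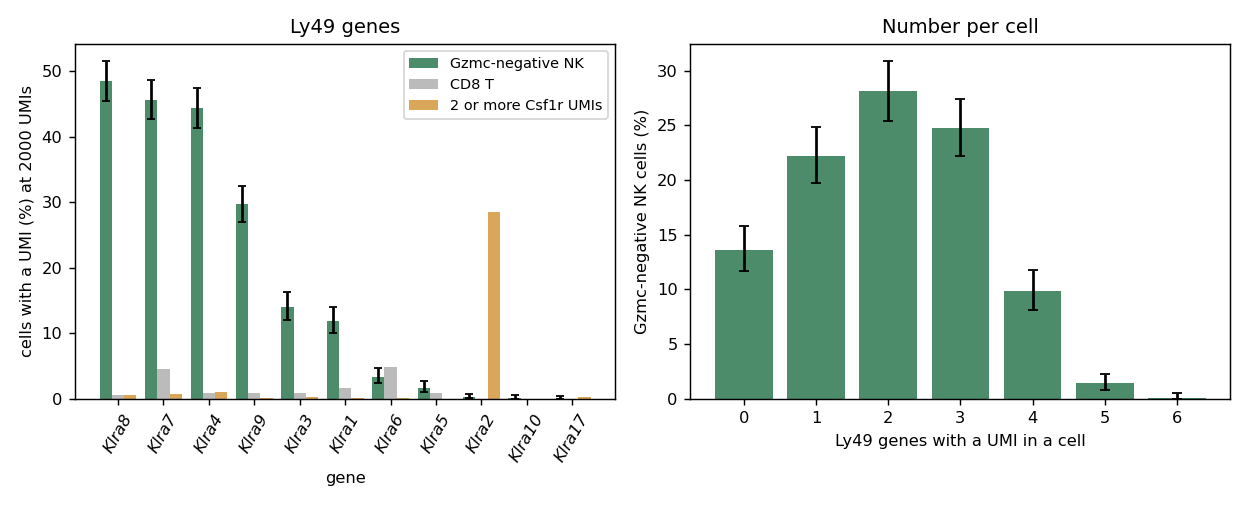
Left, percent of cells with a UMI of each Ly49 gene at 2000 UMIs per cell in Gzmc-negative NK cells (bars with exact 95% intervals, counting error only), CD8 T cells and cells with 2 or more Csf1r UMIs. Right, percent of class cells by the number of Ly49 genes with a UMI, where 2 genes is the most frequent number at 28.1%.

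The comparison of Empty vector with Bmal1 WT asks whether the vector went with a different number or state of these cells. The class made up 19.7%, 26.4% and 26.4% of kept cells in the Empty vector hashtags h1, h7 and h8, and 17.1%, 15.4% and 14.7% in the Bmal1 WT hashtags h3, h5 and h9. Every Empty vector hashtag lay above every Bmal1 WT one. The means were 24.2% ± 3.88 and 15.7% ± 1.24 (SD, n = 3 each), a difference of -8.42 percentage points with a two-sided exact permutation p of 0.10, the smallest that 3 against 3 allow. Over whole libraries, cells without a hashtag included, the shares were 22.5% (21.2 to 23.9) and 12% (10.7 to 13.4).

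A share depends on what else is counted. Among kept cells with a Ptprc UMI (CD45, carried by blood cells), the class was 21.3%, 28.4% and 28.3% in Empty vector against 19.9%, 21.5% and 18.4% in Bmal1 WT, where the groups overlap (exact permutation p = 0.20). Of NK cells by the rule with or without Gzmc, the class made up 94.8%, 91.5% and 95.2% in Empty vector against 81.1%, 92.7% and 85.7% in Bmal1 WT, which overlap too (exact permutation p = 0.20). Both denominators were added after the data had been seen. Bmal1 WT cells were deeper, and depth changes the chance that a cell shows a Gzmc UMI, whose part in the result was not tested.

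**Figure D4:**
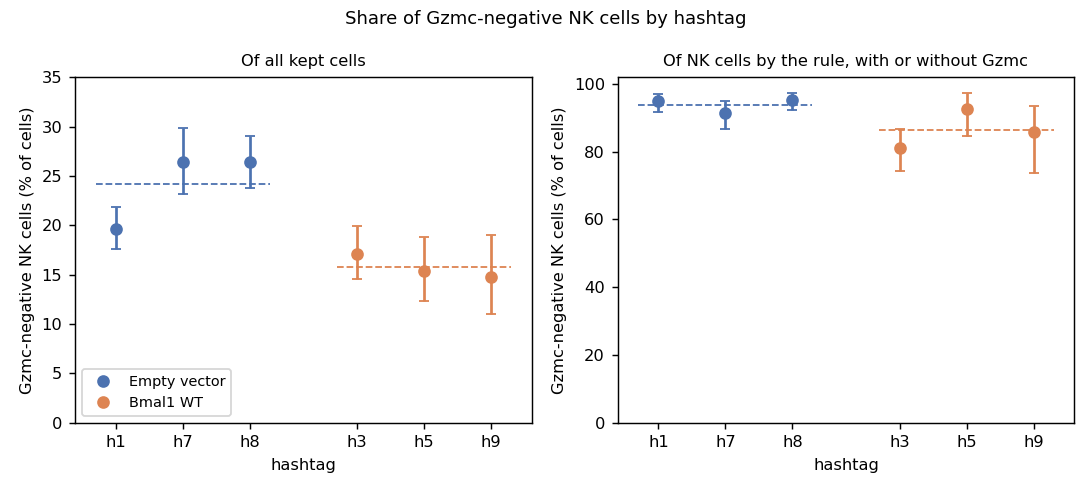
Share of Gzmc-negative NK cells by hashtag, as percent of all kept cells (left) and of NK cells with or without Gzmc (right). Points are hashtags with exact 95% binomial intervals (counting error only) and dashed lines are group means, 24.2% and 15.7% on the left, where the groups do not overlap, and 93.9% and 86.5% on the right, where they do.

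The granzymes did not separate the groups. Summed over class cells, Gzma was at 5008, 6505 and 7063 CPM in h1, h7 and h8 and at 6739, 8778 and 3547 in h3, h5 and h9 (log2 fold change of Bmal1 WT over Empty vector 0.04, SE 0.24). Gzmb was at 1155, 1615 and 1216 CPM and at 1491, 1682 and 405 (-0.14, SE 0.35). Prf1 was at 759.5, 916 and 834 CPM and at 845, 1011 and 708 (0.03, SE 0.14). In all 3 genes the groups overlap, h5 is the highest and h9 the lowest of the 6 hashtags. The largest class cell of h9 held 59400 of the 333505 UMIs of that hashtag, and its part in these CPM values was not tested.

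The share of cells with a UMI was compared at 2000 UMIs per cell for 8 genes and for the number of Ly49 genes. With all 6 hashtags none of the 9 measures separated the groups, and the smallest exact permutation p was 0.20 (0.45 after Benjamini-Hochberg adjustment over the 9). Without thinning, where Bmal1 WT cells were deeper, Gzma, Prf1 and Klra4 did not overlap (exact permutation p = 0.10, adjusted 0.30), and the Prf1 difference went from 0.649 to 8.66 percentage points. Without h9, Gzma, Gzmb, Prf1, Ccl5 and Klra4 did not overlap at 2000 UMIs. Gzma gave a UMI in 79.5%, 83.6% and 88.5% of Empty vector and 91.0%, 91.7% and 84.4% of Bmal1 WT cells, and Gzmb in 53.3%, 58.5% and 57.0% and in 66.2%, 62.5% and 44.4%. Klra4 was in 48.4%, 46.8% and 45.2% and in 34.6%, 41.7% and 46.7%, and Klra8 in 47.5%, 50.3% and 50.4% and in 37.6%, 62.5% and 46.7%. The Bmal1 WT hashtags, with 45 to 133 thinned cells each, spread more widely than the Empty vector hashtags, with 171 to 270. The number of Ly49 genes per cell was 2.03 ± 0.08 and 1.92 ± 0.10 (SD, n = 3 each), a difference of -0.11 (exact permutation p = 0.20).

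Across all genes, edgeR's quasi-likelihood test called 0 of 7909 (0%) at an adjusted p of 0.05, with a smallest adjusted p of 0.285. At an unadjusted p under 0.05 there were 278 genes (3.51%) higher and 543 (6.87%) lower in Bmal1 WT. The median gene was at -0.10 on the log2 scale. With TMM scaling, which brings the median to 0.00, edgeR called 0 as well. At an unadjusted p under 0.05 there were then 465 genes higher and 246 lower in Bmal1 WT. The share higher among such genes went from 33.9% to 65.4%. DESeq2 called 88 genes (77 higher, 11 lower) and gave no adjusted p to 7513 of the 7909. Single genes below are thus described as values with no call by edgeR.

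Among the 10 genes of lowest p higher in Bmal1 WT, 4 encode ribosomal proteins. Rpl26 stood at 1326, 1464 and 1434 CPM in Empty vector against 1839, 1987 and 2003 in Bmal1 WT (log2 fold change 0.46, SE 0.10). Eno1, the glycolytic enolase, stood at 188, 168 and 186 CPM and at 287, 275 and 318 (0.69, SE 0.13). Cox5b, a subunit of cytochrome c oxidase, stood at 123, 136 and 135 CPM and at 208, 218 and 201 (0.67, SE 0.13). In each the groups do not overlap, and the adjusted p by edgeR was 0.285.

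The others were Edf1 (0.72), a transcriptional coactivator, Txn1 (0.60), thioredoxin, Pfdn1 (1.02), a prefoldin subunit, Dbi (0.98), which binds acyl-CoA, and Rpl32 (0.44), Rps15a (0.38) and Rpl11 (0.45). Dbi and Pfdn1 were highest in h9. The fold change of Dbi was 0.64 without h9, 0.54 with thinned cells and 0.43 without cells of mixed lineage. All 10 genes had groups that do not overlap, as had 392 of 7909 genes (4.96%) in this direction and 1023 (12.9%) in the other.

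Of the 10 of lowest p in the other direction, Nr1d2, the clock repressor REV-ERB beta and a known target of Bmal1, stood at 34.8, 32.6 and 40.7 CPM in Empty vector against 15.6, 15 and 9.0 in Bmal1 WT (-1.37, SE 0.29). Itgad, the CD11d integrin, stood at 31.8, 27.8 and 22.7 and at 5.55, 7.51 and 9.0 CPM (-1.98, SE 0.37). The Bmal1 WT values rest on few UMIs, 14, 6 and 3 for Nr1d2 and 5, 3 and 3 for Itgad. Ikzf1, the lymphoid factor Ikaros, stood at 460.4, 464 and 453 and at 319, 305 and 285 CPM (-0.59, SE 0.12). Every Bmal1 WT hashtag was below every Empty vector one in these genes, with an adjusted p of 0.285 by edgeR.

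The remaining 7 were Ctdspl2 (-1.01), Dgat1 (-0.68), an enzyme of triglyceride synthesis, Dusp5 (-0.68), a phosphatase acting on ERK, Nr4a2 (-0.79), an immediate early nuclear receptor, Tceal9 (-0.87), Fto (-0.86), an RNA demethylase, and Ppp3r1 (-0.66), a calcineurin subunit. Nr4a2 stood at 679, 662 and 473 CPM and at 399, 288 and 351, and Dusp5 at 1084, 1156 and 1028 and at 829, 641 and 549. Both are induced on activation of lymphocytes.

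Clock genes were sparse. Of the 10 of 19 with enough UMIs, only Nr1d2 had an unadjusted p under 0.05. Arntl stood at 18.9, 19.2 and 26.0 CPM in Empty vector against 16.7, 20 and 21.0 in Bmal1 WT (-0.21, SE 0.31), with overlapping groups. Per1 stood at 65.9, 45.1 and 41.3 and at 42.2, 52.6 and 63.0 CPM (-0.02, SE 0.24).

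Among NK lists, homing receptors had 6 of 18 genes at an unadjusted p under 0.05 lower in Bmal1 WT and 0 higher, against 6.87% of all genes lower, with a list median of -0.15. Among them were Ccr2, Cxcr6, Itgal, Itgam and Gpr183. Ccr2, a receptor for monocyte-attracting chemokines, stood at 841, 729.8 and 614 CPM and at 574, 478 and 569.7 (-0.43, SE 0.14). In the ILC1 and residency list 5 of 15 were lower and 0 higher (median -0.24). With TMM the homing receptors still had 6 lower and the residency list 4.

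Of 18 granule and death ligand genes 1 was higher (Gzmk) and 0 lower, and of 16 mature NK genes 1 was higher (Cma1) and 2 lower (Itgam, Tbx21). Of 8 tested Ly49 genes 0 were higher and 1, Klra6, lower (26.5, 22.1 and 28.0 against 14.4, 12.5 and 12 CPM), and all 8 fold changes were below 0 (7 with TMM, where Klra5 was at 0.09), with a median of -0.21 (-0.11 with TMM). Of 32 interferon-stimulated genes 4 were lower (Isg15, Ifit1, Ifi213 and Mx1) and 0 higher (2 and 0 with TMM).

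The other lists stand beside the same 3.51% and 6.87% of all genes. Of 22 NKG2, NKR-P1 and other receptors 3 were lower (Klri2, Cd244 and Cd96) and 0 higher, and of 20 adaptors and kinases 1 was lower (Zap70). Of 10 checkpoint genes 3 were lower (Ctla4, Cd96 and Vsir), with a list median of -0.53. The immature list had 1 of 14 lower (Il7r), and the transcription factors 4 of 23 lower (Ikzf1, Ikzf3, Tbx21 and Eomes, the last a gene of the rule) and 0 higher. Of 10 cytokine genes 1 was higher and 2 lower, and of 24 cytokine receptor genes 1 higher and 3 lower. With TMM both balances turned, to 2 higher and 1 lower in each, as did that of all 7909 genes (465 higher and 246 lower). Lower genes with TMM were 2 NK receptors, 2 checkpoint genes, 0 immature genes and 3 transcription factors. Of the adaptors and kinases 1 was then higher and 0 lower.

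Of 29 immediate early and NF-kB genes 2 were higher (Atf3 and Ier3) and 4 lower, Dusp5 and Nr4a2 among them with Junb and Fosl2. Of 16 MHC class I genes 3 were lower and 0 higher (2 and 1 with TMM), led by H2-K1, a classical MHC class I heavy chain. H2-K1 stood at 4082, 4031 and 3878 CPM in Empty vector against 3262, 3212 and 2762 in Bmal1 WT (-0.38, SE 0.09, adjusted p by edgeR 0.285). Every Bmal1 WT hashtag lay below the Empty vector hashtags. Of 13 heat shock genes 0 had an unadjusted p under 0.05 (2 higher with TMM), and of 24 actin, integrin and motility genes 4 were higher and 1 lower (9 and 1 with TMM). Over all 7909 genes, TMM gave 465 higher and 246 lower at that p.

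Ccl5 depended on how cells were counted. It stood at 3238, 3390.2 and 4307 CPM in Empty vector against 5412, 6503 and 3712 in Bmal1 WT (0.52, SE 0.17, adjusted p by edgeR 0.335), with h9 below the highest Empty vector hashtag. With each cell thinned to 2000 UMIs, so that every cell weighs alike, its fold change was 0.84 with an adjusted p by edgeR of 1.02e-06. Over the alternatives that kept all 6 hashtags its adjusted p ran from that value to 0.434, with hashtags called by centred log ratio. Without h1 the smallest adjusted p of any gene was 0.702.

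The hypoxia and glycolysis list had 7 of 23 genes at an unadjusted p under 0.05 higher and 1 lower, against 3.51% and 6.87% of all genes. In several h9 was far above the rest. Pkm, pyruvate kinase, stood at 229, 259 and 285 CPM in Empty vector against 302, 223 and 921 in Bmal1 WT (0.86, SE 0.38). Without the 19 class cells of over 15000 UMIs h9 held 226 CPM and the fold change was 0.04. In h9 this left 47 of 48 class cells, and the cell left out held 59400 of the 333505 UMIs. For Gapdh the fold change went from 0.92 to 0.51, and for Eno1 from 0.69 to 0.48. Eno1 in h9 was then at 168 CPM, below every Empty vector hashtag (188, 170 and 177 CPM). Vim, S100a6 and Lgals1, encoding vimentin, a calcium-binding protein and a galectin, were at 1421, 3223 and 1550.2 CPM in h9, and at 328, 420 and 438 without those cells. Vim was then at 191, 258 and 240 CPM in Empty vector against 366, 413 and 328 in Bmal1 WT. S100a6 was at 264, 386 and 299 against 485, 548 and 420, and neither gene overlapped. Lgals1, at 352, 473 and 384 against 776, 568 and 438, did overlap. Their fold changes were 0.69, 0.63 and 0.60 (adjusted p by edgeR 0.035, 0.046 and 0.066), in an alternative chosen after the data had been seen.

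Ribosomal protein genes as a family were looked at after their values had been seen. Of 77, 53 had an unadjusted p under 0.05 higher in Bmal1 WT and 0 lower, against 3.51% of all genes higher. Groups that do not overlap, with Bmal1 WT higher, were seen in 55, against 4.96% of all genes. The median log2 fold change was 0.28 (0.38 with TMM). They took 16.7%, 19.1% and 18.0% of class UMIs in Empty vector against 20.4%, 21.6% and 21.3% in Bmal1 WT. CD8 T cells of the same hashtags had 18.5%, 19.8% and 19.5% and 21.1%, 21.0% and 23.1%, and all other kept cells 14.8%, 16.5% and 15.2% and 18.2%, 18.8% and 16.4%. The groups did not overlap in the class or in CD8 T cells, and overlapped in the other cells by 1 hashtag on each side. Of 76 nuclear genes of oxidative phosphorylation, chosen in the same way, 20 were higher and 2 lower at that p, with a median of 0.22. Over all genes these shares were 3.51% and 6.87%. They took 1.279%, 1.341% and 1.303% of class UMIs in Empty vector against 1.525%, 1.448% and 1.555% in Bmal1 WT. All other kept cells had 1.525%, 1.531% and 1.563% against 1.796%, 1.831% and 1.769%, also without overlap. CD8 T cells had 1.435%, 1.326% and 1.512% against 1.558%, 1.44% and 1.705%, with overlap. The rise was thus not confined to the class.

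**Figure D5:**
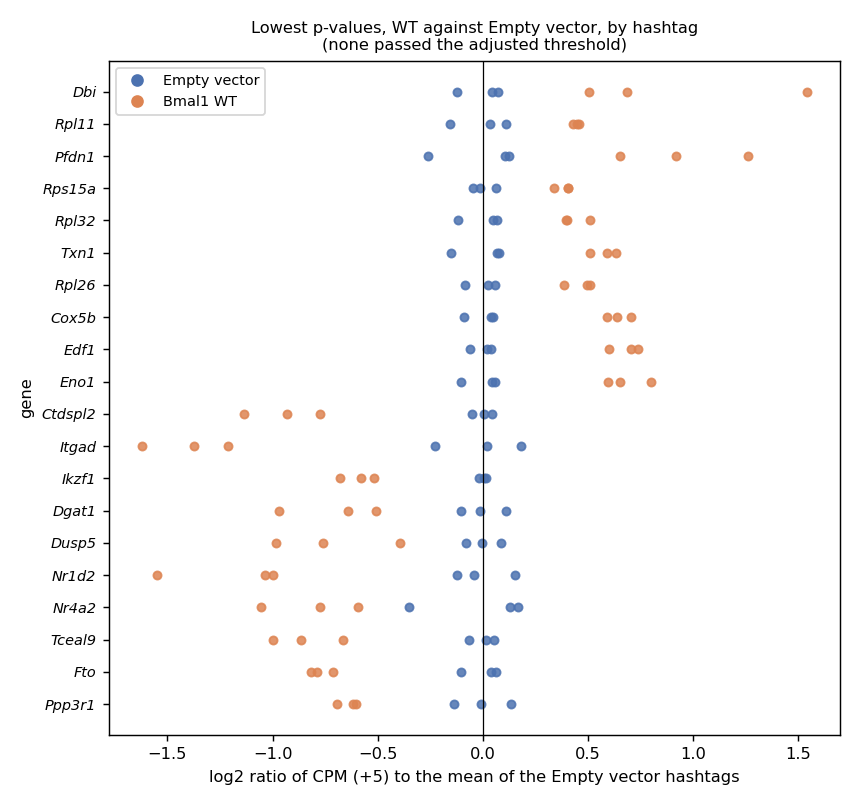
Log2 ratio of CPM (5 CPM added) in each hashtag to the mean of the 3 Empty vector hashtags, for the 10 genes of lowest p in each direction in Gzmc-negative NK cells (Empty vector blue, Bmal1 WT orange, 1 point per hashtag). Nr1d2 is lower in every Bmal1 WT hashtag (9.0 to 15.6 CPM, on 3 to 14 UMIs) than in any Empty vector hashtag (32.6 to 40.7 CPM). Of these genes 0 passed an adjusted p of 0.05 by edgeR.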

How the data were processed

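The deposited matrices of Empty vector and Bmal1 WT held UMI counts per gene and hashtag, made by the authors with Cell Ranger 6.1.2 per the file headers and mm10 per the submitters' processing notes. The bHLH files were identical to those of Bmal1 WT (3 of 3) and were not used. The members of the class and the gene lists were chosen with earlier results of these data known.

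Barcodes with at least 200 genes and at most 20% mitochondrial UMIs were kept. A hashtag was called above a minimum count set per hashtag, and cells with 1 hashtag were summed per hashtag (class sums of 333505 to 1500448 UMIs). On these sums a quasi-likelihood fit of edgeR 4.0.16 under R 4.3.3 was the main test (library sizes of summed UMIs; at least 50 UMIs over the 6 hashtags; Benjamini-Hochberg adjustment at 0.05), which was tested on simulated data. Alternatives were TMM, DESeq2 1.42.0, other gene, cell and hashtag filters, thinning and leaving out each hashtag. Shares were compared by two-sided exact permutation tests (Python 3.11.15, scipy 1.17.1, numpy 2.4.6), and intervals are exact (Clopper-Pearson, 95%), covering counting error only.

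Class ratios used CPM with 5 added, over genes of at least 50 CPM. Named genes are the 20 highest and 10 lowest against other kept cells, 10 and 10 against Gzmc-positive NK cells, the 10 of lowest p in each direction between groups, the Ly49 genes, Gzma, Gzmb, the 15 with the largest variance-to-mean ratio and list members. Cells were thinned without replacement (seed 7). CD8 T cells were chosen by their own marker UMIs. No doublets were called. Some list members and named genes are not reported here.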

Additional observations from a re-analysis of the deposited data

How the results depend on the processing

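The lower share of the class in Bmal1 WT kept its direction under 12 of 12 alternatives. Some of these left out 1 hashtag at a time, which could not turn the direction, because the groups did not overlap with all hashtags. It moved the difference between -10.66 and -7.28 percentage points. The number of genes called by edgeR was 0 in the reported fit, with TMM, with each hashtag left out, with at least 100 UMIs per gene, with stricter cell filters, with at least 3 NK marker UMIs and with hashtags called by centred log ratio. It was 88 with DESeq2, 260 without a filter on genes, 15 without cells of mixed lineage and 45 with each cell thinned to 2000 UMIs. It was 21 without the 19 cells of over 15000 UMIs and 12 without cells of mixed lineage by a wider list, both alternatives chosen after seeing the data. The cause was not tested.

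Ccl5, Nr4a2, Rpl26, Rpl32, Rps6 and Tmsb10 were each called in 6 alternatives. Over 24 named genes and 407 refits, 345 kept their direction and side of the threshold, 54 passed it and 8 turned. The turns were in Gzma, at -0.024 with centred log ratios and between -0.26 and 0.32 with a hashtag left out, and in Gzmb, at 0.12 without cells of mixed lineage, 0.20 with thinned cells and between -0.44 and 0.25 with a hashtag left out.

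Shares of cells with a UMI also turned, and groups that overlap with all hashtags ceased to overlap for 4 of 9 measures without h8, 2 without h5 and 5 without h9. With a hashtag left out the difference ran from -2.79 to 8.07 percentage points for Gzmb, -2.64 to 5.70 for Prf1, -7.27 to 5.18 for Klra8 and -1.13 to 1.18 for Klra9. At 1000 UMIs it was -0.253 for Gzmb and -2.97 for Prf1, and without thinning 2.34 for Klra8 and -2.76 for Klra9. No paired analysis was possible because the groups share no hashtag. With 3 hashtags per group the exact test cannot go below 0.10, and h9 held only 48 class cells.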

Other observations

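Some receptors outside the Ly49 family, though not all, also divided the class from CD8 T cells at 2000 UMIs per cell, given as a description. Klrd1 (CD94) was found in 76.4% of class cells and 53.8% of CD8 T cells, and Klrk1 (NKG2D) in 62.9% and 23%. Klrc1 (NKG2A) was found in 30.8% of both. The maturation receptor Klrg1 was in 7.38% and 2.48%, and the stem cell factor receptor Kit in 3.73% and 0.828%. Cxcr6 was in 1.31% of class cells and 48.4% of CD8 T cells, Il7r in 3.08% and 26.5% and Cx3cr1 in 4.20% and 12%. Ifng was in 11.7% and 12.6%, and Xcl1 in 23.5% and 12.8%.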
